A study of Mus musculus with 8 samples.

Results

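Dox peaks that lie over several control peaks are m6A peaks of Setd2-knockdown cells that each touch more than 1 listed peak of control cells. They were chosen from the deposited peak tables as rows of the Dox table whose exonic blocks share at least 1 nt, on the same strand, with 2 or more rows of the control table. There are 2258 of them among the 27612 Dox peaks, which is 8.18% of the table, and they touch 4061 of the 25815 control peaks. The study mapped N6-methyladenosine in feeder-free mouse embryonic stem cells that carry a doxycycline-inducible knockdown of Setd2 and grew as spheres in 2i medium with 1 µM PD0325901, 3 µM CHIR99021 and 1000 U/ml LIF. Dox cells received 1 µg/ml doxycycline for 4 days and control cells received none. Both carry the knockdown construct, and without Dox-treated cells that lack it, an effect of the drug and of the knockdown cannot be told apart. The labels name neither the clone nor separate cultures for the replicates. The 8 libraries are 2 IP and 2 input libraries from Dox cells and as many from control cells. The authors called peaks on the replicates together, so each value below is 1 value per peak and condition, read depth per peak is unknown, and no replicate spread and no test between conditions can be had.

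m6A is written onto nuclear transcripts by a complex around METTL3 and METTL14, and is known to be dense in long internal exons and around stop codons. The mark is read here by antibody pull-down of RNA fragments, so sites closer than about a fragment length can appear as a single peak. SETD2 trimethylates lysine 36 of histone H3 along transcribed genes, and METTL14 has been reported to bind that histone mark. Setd2 itself held none of the joining peaks. Of its 6 Dox peaks, 5 lay on a single control peak each and 1 on none, and its control list held 10 peaks. Naive stem cell genes carried m6A peaks in the tables: Pou5f1 had 2 Dox and 2 control peaks, Sox2 had 1 and 1, Nanog had 2 and 1, Esrrb had 4 and 3, Klf4 had 3 and 4, and Tbx3 had 5 and 6. Tfcp2l1 had 3 Dox peaks and 1 control peak, Prdm14 had 2 and 0, and Zfp42 and Dppa3 had 1 and 2 each. The fibroblast genes Col1a2, Col3a1, Thy1, Dcn, Lum and Postn had none, while Col1a1 had 2 Dox peaks and 1 control peak and Vim had 5 and 4. These counts of peaks give no transcript level.

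The 2258 joining peaks are of 2 kinds. In 1588 of them (5.75% of all Dox peaks) the control rows fall into 2 or more separate regions, so that the Dox peak bridges RNA that was not called in control cells. In the other 670 the control rows overlap each other, so a single control region is listed several times and nothing is bridged. The control rows of 499 of these 670 (74.5%, exact 95% interval 71.0% to 77.7%) carry different gene identifiers, and those of 171 carry a single identifier. The extreme case is a shared region of the protocadherin gamma cluster, whose genes splice variable first exons to common last exons. There 27 Dox rows, each under its own identifier, all touch the same 27 control rows, with Dox folds of 2.0 to 2.2 and widths of 143 to 181 nt beside control folds of 1.79 to 2.37 and widths of 114 to 181 nt. The 27 Dox rows form 1 region, which makes 27 members out of a single place on the transcript. The 670 repeat members come down to 331 separate Dox regions, and the 1588 bridging members to 1564.

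MicroRNA genes that share exonic bases with another gene give examples of such repeats. In 10 members a control row has exactly the bounds of a microRNA hairpin, 8 hairpins in all. The Mir8114 and Mir692-2 hairpins reach past the other control row, and those of the other members lie within one. In some members, such as a second one at Mir7653, the Dox row too has the hairpin's bounds. Of the 10, 9 are repeats and 1, on Dgcr8, bridges separate regions and has a repeated control row. The mature microRNAs of 4 of the hairpins are printed to show which small RNAs these control rows bound, 5′ to 3′, from RefSeq (GRCm38.p6, the assembly of mm10), with the seed (bases 2 to 8) in capitals.
mmu-miR-671-5p: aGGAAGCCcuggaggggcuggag
mmu-miR-671-3p: uCCGGUUCucagggcuccacc
mmu-miR-1306-5p: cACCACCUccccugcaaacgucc
mmu-miR-1306-3p: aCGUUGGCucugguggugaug
mmu-miR-3063-5p: uGGAGAUCagguuugcacacu
mmu-miR-3063-3p: uGAGGAAUccugaucucucgcc
mmu-miR-7653-5p: uAAGGGGCggacagacagacgg
mmu-miR-7653-3p: cCCCUACUguuccaccccgccu
No seed is shared among these 8 arms. The letters GGAC, a common form of the m6A motif, occur in 3 of the 8 hairpin sequences (transcribed strand only), beside 246 of the 1005 hairpins in the RefSeq table (24.5%).

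The Mir671 hairpin lies at chr5:24592114-24592211 (plus strand, mm10), inside a peak of Chpf2, a chondroitin polymerizing factor gene. The Dox peak on Chpf2 was 359 nt wide with a fold of 4.34. It covered a host control peak of 240 nt (fold 6.15) and the 98-nt control row of the hairpin (fold 7.38, log10 p -2.69). Mir3063 lies at chr11:95963292-95963383 on the minus strand within Igf2bp1, which encodes an RNA-binding protein that reads m6A. The Igf2bp1 peak had the same bounds in both conditions and was 391 nt wide, with a fold of 4.17 in Dox and of 6.46 in control, and its second control row was the 92-nt hairpin at 3.14. On Tlcd1, whose exon holds Mir7653, the Dox peak was 361 nt wide with a fold of 7.59, against a control peak of 1021 nt with a fold of 40.0 and a 61-nt hairpin row with a fold of 17.6. Thus at Tlcd1 the Dox peak that joins by the rule is narrower than the control peak beneath it.

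Dgcr8, which encodes the partner of Drosha in microRNA processing and carries the Mir1306 hairpin in its own transcript, holds a bridging member with a repeated control row. Its Dox peak (chr16:18280682-18284631, minus strand) was 1170 nt wide with a fold of 4.59 and a log10 p of -39.9. It bridged a control peak of 241 nt (fold 1.72, log10 p -5.4) and a control peak of 420 nt (fold 3.69, log10 p -19.6), which itself contains the hairpin row of 79 nt (fold 3.94, log10 p -2.46). The bridged stretch between the separate regions was 419 exonic nt.

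The 1588 bridging peaks are described next, and repeats are left out unless named. Most bridged a pair of regions: 1398 joined 2 regions, 162 joined 3, 24 joined 4 and 4 joined 5. Together they took in 3412 control peaks, or 13.2% of the control table. The median bridging peak had an exonic width of 833 nt (quartiles 600 and 1170), against 270 nt (180 and 420) for the control peaks it joined. Dox peaks on exactly 1 control peak had a median width of 271 nt and those on none 151 nt. Width is tied to the rule, since a wider peak can touch more peaks, so these values are a description. In the plot of peak widths the repeat members follow the single-match peaks, with a median of 281 nt, and only the bridging peaks stand to the right.

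**Figure D1:**
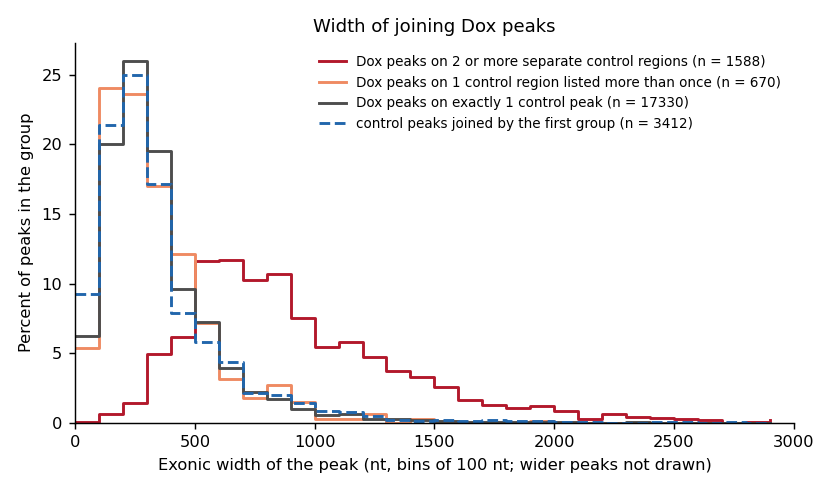
Distribution of exonic peak width in nt (x axis, bins of 100 nt) as a percentage of each group (y axis), for bridging Dox peaks, repeat members, Dox peaks on exactly 1 control peak and, dashed, the control peaks joined. Bridging Dox peaks have a median of 833 nt and the other Dox groups medians of 281 and 271 nt.

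The peaks with most control regions show the pattern at its fullest. Dag1 encodes dystroglycan, which links the cytoskeleton to the extracellular matrix. A Dox peak of 3359 nt on Dag1 (chr9:108206793-108242980, minus strand, 3 exonic blocks) had a fold of 5.59 and a log10 p of -292. Along the transcript it joined 5 control peaks of 391, 301, 210, 931 and 121 nt with folds of 3.61, 5.19, 2.31, 7.13 and 1.66. The last of these, nearest the 3′ end, was weak, with a log10 p of -2.37.

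Tnip1, which encodes a ubiquitin-binding inhibitor of NF-kappaB signalling, had a Dox peak of 2190 nt across 13 blocks with a fold of 5.5. It also joined 5 control peaks, whose folds ran from 7.44 at the 5′ end through 6.91, 3.03 and 4.58 to 1.64 at the 3′ end. Gpatch8, a G-patch domain protein gene, had a Dox peak of 3446 nt with a fold of 6.54 over 5 control peaks, with folds between 2.77 and 8.02. Pakap, which encodes an anchoring protein of protein kinase A, led by number of control rows among members with a gene symbol: its Dox peak of 3420 nt (fold 9.26) touched 7 rows, which are 4 separate regions because 3 of them are listed under a second identifier. Spp1, the gene of the secreted protein osteopontin, and the JNK pathway kinase gene Map2k7 each touched 5 rows, in 4 and 3 separate regions. Their Dox peaks measured 1169 nt (fold 4.32) and 569 nt (fold 3.56).

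**Figure D2:**
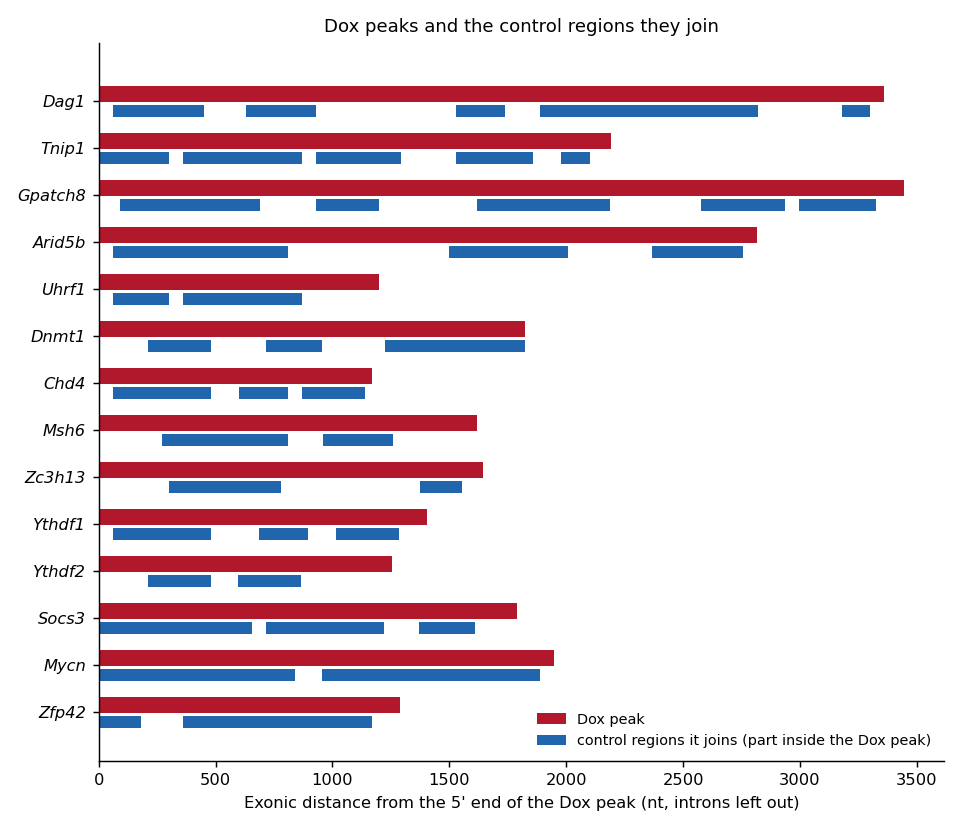
Dox peaks (red) and the parts of the control regions they join (blue, beneath) for 14 named genes, drawn to scale in exonic nt from the 5′ end of the Dox peak with introns left out. Dag1, Tnip1 and Gpatch8 each join 5 control regions, and Arid5b bridges the longest stretch, 688 nt.

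The bridged RNA was short in most cases. Between neighbouring joined regions the 1810 stretches had a median length of 119 exonic nt (quartiles 88 and 179), and 67.4% were under 150 nt. Their lengths were not spread evenly: 1617 of 1810 (89.3%) fell 1 or 2 nt short of a multiple of 30 nt. There were 298 stretches of exactly 59 nt, 204 of 89 nt, 156 of 119 nt and 134 of 149 nt, so the lengths follow steps of 30 nt. Among the stretches, 479 (26.5%) ran across a junction between exonic blocks, with a median of 149 nt, against 119 nt for those within a block.

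**Figure D3:**
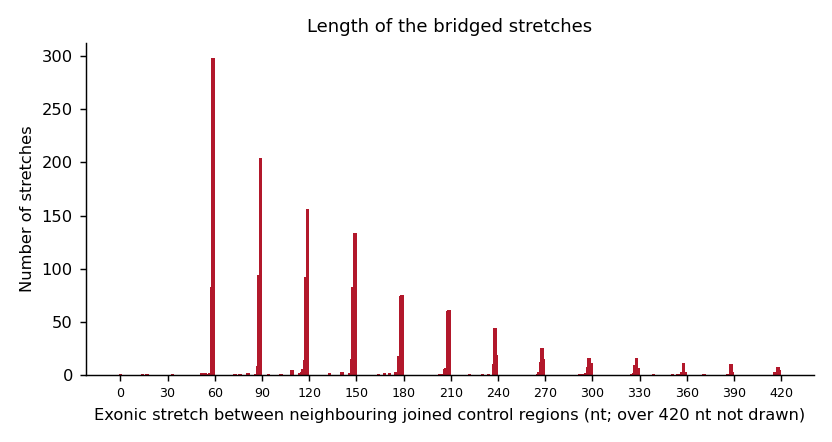
Number of bridged stretches (y axis) by length in exonic nt (x axis, ticks every 30 nt). The counts stand in narrow columns just below multiples of 30 nt and decline with length, from 298 stretches at 59 nt.

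Long bridges were few: 110 of the 1810 stretches (6.08%) reached 300 nt. The longest lay in Arid5b, a gene of an ARID-domain DNA-binding protein. Its Dox peak of 2817 nt had a fold of 6.11 and crossed 688 nt between control peaks with folds of 5.25 and 7.35, then went on to a control peak with a fold of 3.48. Cobl, which encodes an actin nucleator, followed with a bridge of 628 nt. Its Dox fold of 3.94 was lower than both joined control folds, 9.88 and 5.43. Then came Dag1 with 599 nt, Zc3h13 with 596 nt, the Ral activator gene Ralgds with 567 nt and Babam1, a gene of a BRCA1 complex, with 559 nt. In Ralgds the 3 joined control peaks covered 332 of the 957 nt of the Dox peak.

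Outside the bridged stretches most Dox peaks ran little past the control peaks they join. Control peaks covered a median of 72.2% of a bridging peak. Beyond the outermost control peaks the Dox peak ran on by a median of 0 nt at its 5′ side (quartiles 0 and 59) and 30 nt at its 3′ side (0 and 88). In 375 of the 1588 (23.6%) it did not pass the control peaks at either side. A Dox peak that ends inside an outer control peak counts as 0 nt, so these lengths do not show shared bounds. Both outer bounds were the same in 96 members (6.05%). Longer extension was more often at the 3′ side, in 725 peaks, than at the 5′ side, in 420.

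The folds of most bridging peaks lay between those of the control peaks they join. The Dox fold was between the lowest and highest joined control fold in 886 members (55.8%), above all of them in 478 (30.1%) and below all of them in 224 (14.1%). On the log2 scale the Dox fold minus the highest joined control fold had a median of -0.34 (quartiles -0.89 and 0.11). For Dox peaks on exactly 1 control peak, the Dox fold minus that single control fold had a median of -0.33. Taking the highest of several control folds lowers the first median by construction, so these medians do not measure the same quantity. Against the weakest joined control peak the median difference was 0.71, which taking the lowest fold raises by construction. Folds are the authors' IP over input ratios within separately called tables, which also depend on pull-down and depth.

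**Figure D4:**
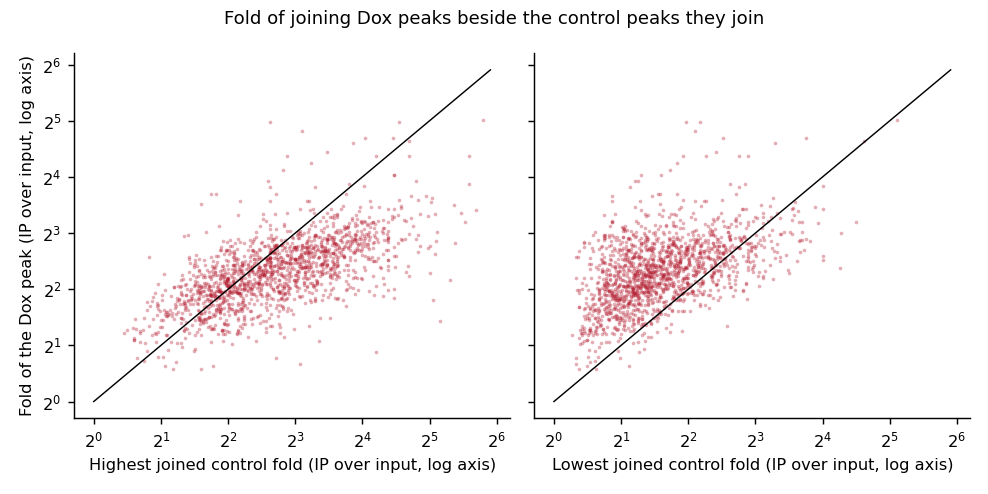
Fold (IP over input) of each of the 1588 bridging Dox peaks (y axis, log scale) beside the highest (left) and the lowest (right) fold among the control peaks it joins (x axis, log scale), with the line of equal fold. Most points lie below the line on the left and above it on the right and 886 Dox folds lie between both.

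The highest and the lowest joined control values of a member differ by how they are picked, so they are a description. The ratio of the highest to the lowest joined fold had a median of 1.94. The strongest joined control peak had a median log10 p of -42.2 and the weakest one of -6.83. In 600 members (37.8%) at least 1 joined peak had a log10 p above -5. As a whole, the joined control peaks had a median log10 p of -17.2 (quartiles -56.0 and -5.72). All control peaks had a median of -9.68 (-37.3 and -4.3), which includes those that no Dox peak touches. Control peaks that touch a Dox peak but were not joined had a median of -14.4 (-50.3 and -5.5). The median fold was 3.99 for joined control peaks and 4.65 for those touched but not joined. The bridging Dox peaks had a median log10 p of -38.6, beside -11.4 for Dox peaks on exactly 1 control peak. The authors' stricter list (fold of 2 or more and p no higher than 1e-05) holds 95.9% of the bridging peaks, beside 68.7% of those on exactly 1. Bridging peaks were also wider (medians of 833 and 271 nt), and p was not compared at equal width. Among 1349 members with exactly 2 control rows, the 5′ control peak had the higher fold in 718 (53.2%, 50.5% to 55.9%).

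Many members tie at the lowest log10 FDR, listed as minus infinity, and the 6 named next are those of highest fold among them, not those of lowest p. Uhrf1 encodes the protein that brings the maintenance DNA methyltransferase to newly copied DNA. Its Dox peak (chr17:56303321-56312678, plus strand, 1200 nt in 8 blocks) had a fold of 13.0 and a log10 p of -456, against control peaks of 241 nt (fold 3.0, log10 p -37.5) and 511 nt (fold 3.34, log10 p -400). The bridge was 59 nt, and the Dox peak went 329 nt past the 3′ control peak. Its fold was the higher one, unlike in the table at large.

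Calm2, a calmodulin gene, had the same order, with a Dox fold of 11.9 over 899 nt against control folds of 4.51 and 4.27. In Rrbp1, which encodes a ribosome receptor of the endoplasmic reticulum, the order was the opposite at the stronger peak: the Dox fold was 12.3 over 2190 nt and the control folds were 9.55 and 32.8. Kat6b, a histone acetyltransferase gene, had a Dox fold of 8.24 and control folds of 20.9 and 2.04. In Tns3, a focal adhesion gene, they were 8.0 in Dox and 12.5 and 3.52 in control, and in Chaf1a, a subunit gene of the histone chaperone CAF-1, 7.79 in Dox and 14.9 and 4.2 in control. In these 4 genes the Dox fold lay between those of the joined peaks.

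Members of highest fold were a different set with weak support. Ahnak2, a giant scaffold protein gene, had a Dox fold of 32.5 at a log10 p of -8.36, against control peaks with folds of 34.4 and 55.4 at -12.2 and -14.3. Its Dox peak, 867 nt wide, was narrower than either control peak (1703 and 1942 nt). Myo18b and the glycosyltransferase gene Gcnt1 both had a Dox fold of 31.5, AI661453 had 28.2, and Dnmbp, an activator of CDC42, had 26.0. In Myo18b, Gcnt1, AI661453 and Dnmbp the highest joined control folds were lower, at 23.4, 6.15, 8.61 and 16.4. The log10 p values of their Dox peaks lay between -8.05 and -6.53, against -456 for Uhrf1. Cavin1, a caveola coat gene, was the better supported one, with a fold of 26.0 at -19.2 against control folds of 13.5 and 22.0.

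Whether bridging is particular to the Dox table was examined by exchanging the tables. Control peaks on 2 or more Dox peaks numbered 1272 (4.93% of control peaks), and those on 2 or more separate Dox regions 526 (2.04%). As a share of peaks that touch the other table, bridging took in 8.11% of Dox peaks (7.73% to 8.5%) and 2.52% of control peaks (2.32% to 2.75%). These intervals hold only the error of counting, as if each peak were independent of its neighbours. Dox peaks are wider as a whole, with a median of 240 nt against 211 nt for control peaks, and they are also more numerous. The part of read depth or pull-down in this difference was not tested.

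Neighbouring peaks of the same gene give the matching view at a fixed distance. These distances are genomic, with introns included, unlike the exonic bridge lengths above. Where both neighbours touched the other table, 320 of 457 control pairs less than 60 nt apart (70.0%, 65.6% to 74.2%) were joined by a Dox peak, while 202 of 467 such Dox pairs (43.3%, 38.7% to 47.9%) were joined by a control peak. At 120 to 149 nt the shares were 48.4% of control pairs and 16.4% of Dox pairs, and at 300 to 499 nt 14.8% and 4.46%. With both neighbours at a log10 p of -20 or less, 338 of 753 control pairs under 300 nt apart were joined in Dox (44.9%, 41.3% to 48.5%) and 48 of 594 Dox pairs were joined in control (8.08%, 6.02% to 10.6%). Over all pairs the share joined declined with distance in either direction. It was higher for control pairs in each of the distance classes, over all pairs and over the strong ones.

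**Figure D5:**
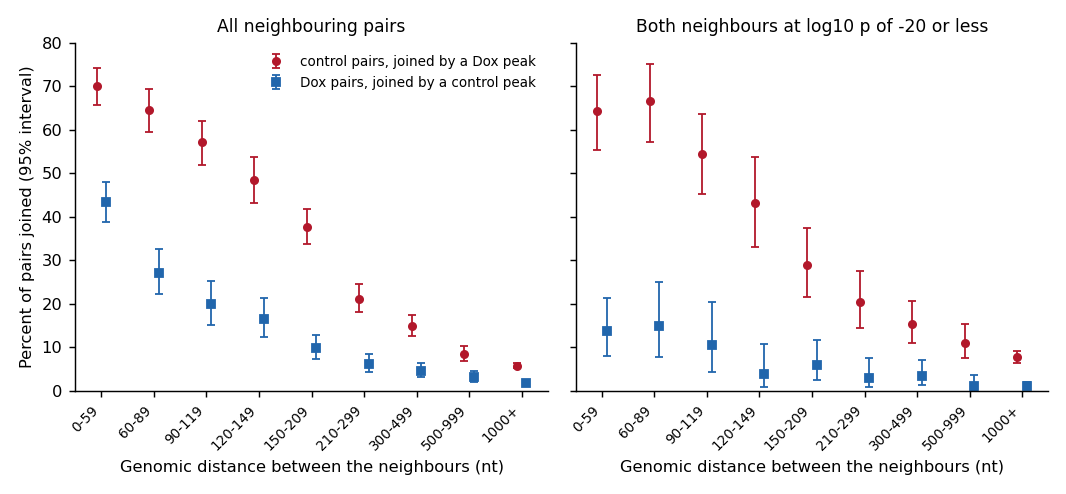
Percentage of neighbouring peak pairs of a gene that a single peak of the other table joins (y axis, exact 95% intervals) by the genomic distance between the neighbours in nt (x axis), for control pairs joined in Dox (red circles) and Dox pairs joined in control (blue squares), over all pairs (left) and pairs of strong peaks (right). Under 60 nt the shares over all pairs are 70.0% and 43.3%.

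Along genes, bridging peaks were less often at the 5′ end than single-match peaks, by an amount that depends on how a wide peak is placed. By peak midpoint, 18 of 1459 bridging peaks (1.23%, 0.733% to 1.94%) lay within 500 nt of the gene's 5′ end, against 10.1% (9.59% to 10.6%) of Dox peaks on exactly 1 control peak. Placed by their 5′ most base, a placing added later with the values known, the shares were 13.1% (11.4% to 14.9%) and 15.8% (15.3% to 16.4%). At the 3′ end, 13.6% of bridging peaks and 14.8% of single-match peaks had their midpoint within 1000 nt, and 26.9% and 19.1% had their 3′ most base there. The median midpoint lay at 80.5% of the gene's length for bridging peaks and at 73.4% for single-match peaks. Of the control peaks that join separate Dox regions, 12.1% (9.27% to 15.4%) had their midpoint near the 5′ end. Their share by 5′ most base and the share of other control peaks are not given here, so no 5′ preference can be read from this value.

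The bridging peaks belong to 1439 gene identifiers. Of these, 1315 hold a single one, 104 hold 2 and 20 hold 3 or more. The number follows how many peaks a gene has: a bridging peak was found in 8.94% of identifiers with 2 control peaks, in 24.9% with 3 or 4, in 52.7% with 5 to 9 and in 76.8% of the 56 with 10 or more. Ahnak, which encodes a giant scaffold protein, had most, with 5 bridging peaks among 21 Dox and 20 control peaks. Its bridging peaks were between 361 and 1319 nt wide, with folds of 3.52 to 6.7. The narrowest of them shared only 1 nt with its second control peak (fold 2.31), which the next bridging peak also joined. Dst, a cytoskeletal linker gene with 33 Dox and 35 control peaks, Golgb1, which encodes the Golgi protein giantin, and the zinc finger gene Zfp646 had 4 each. Counting repeats too, Lcmt2, Mex3d and Zc3h11a had 6 members each and Ahnak, Ahnak2 and Arl4c 5 each. Mex3d and Arl4c had no bridging peak at all, so their members are repeats only.

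Gene groups relevant to the cells were counted among genes with at least 2 control peaks, of which 22.4% of all 6080 named ones held a bridging peak, with a median of 3 control peaks per gene. Chromatin regulators held one in 17 of 37 genes (45.9%, 29.5% to 63.1%). These genes have a median of 6 control peaks, and the share for all identifiers with 5 to 9 was 52.7%. Pluripotency genes held one in 10 of 29 (34.5%, 17.9% to 54.3%), m6A writers, readers and erasers in 8 of 21 (38.1%, 18.1% to 61.6%), and H3K36 methylation genes in 8 of 26 (30.8%, 14.3% to 51.8%). RNA polymerase II and splicing genes held one in 7 of 25 (28.0%, 12.1% to 49.4%) and RAS, WNT and LIF signalling genes in 7 of 26 (26.9%, 11.6% to 47.8%). The intervals of all lists but the chromatin regulators include the 22.4% of all named genes. Jarid2 and Supt6 are each in 2 lists. Of the fibroblast genes, only Vim had 2 or more control peaks, and its member is a repeat.

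Within the m6A machinery, Zc3h13, a subunit of the writer complex that keeps it in the nucleus, held 3 bridging peaks among its 4 Dox and 7 control peaks. They lay side by side on chromosome 14, and 1 of the control peaks itself lies over 2 or more separate Dox regions. The first (chr14:75315911-75323584) had a Dox fold of 9.97 against control folds of 3.54 to 12.0, the second a Dox fold of 11.8 against 12.0 to 32.4, and the third (chr14:75330970-75343918) a Dox fold of 8.18 against 15.1 and 2.08. The reader genes Ythdf1 and Ythdf2 held 1 each. The Ythdf1 peak was 1405 nt wide with a fold of 4.41, against 3 control peaks with folds of 3.84, 2.16 and 3.51, and the Ythdf2 peak was 1255 nt wide with a fold of 6.51, against 2.58 and 3.72. The eraser genes Alkbh5 and Fto, the writer genes Wtap and Mettl5 and the cap methyltransferase gene Pcif1 held the rest. The Pcif1 member shared only 1 nt with a control peak that it joins. The member on Rbm15b, a writer adaptor gene, is a repeat: a Dox peak of 1912 nt over control rows of 1912 and 652 nt that overlap each other.

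Among H3K36 methylation genes, the methyltransferase gene Nsd1 had a Dox peak of 1887 nt with a fold of 8.08, against control peaks with folds of 9.1 and 6.02 and a bridge of 149 nt. Msh6, a mismatch repair gene whose protein reads H3K36me3, had a Dox fold of 5.94 over 1619 nt, against 10.2 and 2.08. Ssrp1, a subunit gene of the histone chaperone FACT, had 3.75 against 5.2 and 3.65. Supt6, a gene of an elongation factor that is linked to SETD2 recruitment, had 4.22 in Dox, lower than both control folds of 6.14 and 5.31. Brpf1, Iws1, Kdm4a and Kdm4b held the others. Their Dox folds were 7.47, 7.58, 7.23 and 4.68.

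The chromatin regulators described next were those that joined most control rows in their list. Dnmt1, the maintenance DNA methyltransferase, had a Dox peak of 1824 nt in 12 blocks with a fold of 3.32, over 3 control peaks with folds of 2.65, 2.15 and 4.56. Chd4, the remodeler of the NuRD complex, had a Dox fold of 3.57 over 3 control peaks with folds of 9.83, 2.1 and 1.84. In Tet1, a 5-methylcytosine dioxygenase gene, the Dox fold was 6.08 and the control folds 9.12, 1.78 and 1.92. In the acetyltransferase gene Ep300 the Dox fold of 4.12 was above all 3 control folds, 1.93, 3.07 and 2.46. The elongation and splicing genes Supt5, Son and Hnrnpu had Dox folds of 2.61, 7.77 and 2.15. In Son, which encodes a nuclear speckle protein, a control peak of 1859 nt with a fold of 18.0 was joined to a weak one of 151 nt with a fold of 1.69.

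Pluripotency genes with a bridging peak included Zfp42, the marker also called Rex1, where the Dox peak of 1290 nt had a fold of 4.16 against control peaks of 181 nt (fold 2.13) and 810 nt (fold 7.41). Mycn had a Dox fold of 4.97, lower than its control folds of 8.32 and 5.23, over a peak of 1946 nt. Nacc1, a cofactor of the Nanog network, had a Dox fold of 4.42 against 2.46 and 7.49. Klf4, a naive state factor, had a Dox fold of 3.95 against weaker control peaks of 1.27 and 2.08. Dppa3, Jarid2, Nr5a2, Rif1, Tbx3 and Trim71 held the others, 2 of them in Rif1. Pou5f1, Sox2, Nanog and Esrrb held none.

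In the signalling pathways that 2i medium and LIF act on, Socs3, the feedback inhibitor of the LIF pathway, had a Dox peak of 1788 nt with a fold of 7.64 over 3 control peaks with folds of 3.87, 9.2 and 2.05. The LIF receptor subunit gene Il6st had a Dox fold of 5.37 against 12.4 and 2.22. Axin1, a scaffold of the beta-catenin destruction complex, had 6.92 against 6.97 and 5.71. Axin2, Map2k2 and Znrf3 also held a bridging peak.

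At the edge of the rule, 77 bridging peaks shared exactly 1 nt with a region they join. Such members are Mars2 (Dox fold 3.36, control peak at the touching edge 2.38), Rtf1 (3.17 and 1.97) and Pcif1 (4.7 and 1.85). Just outside it were Dox peaks on a single control peak with another control peak of the gene 28 nt away, namely on Use1 (fold 5.1, width 775 nt), Gas2l1 (2.12, 330 nt) and Chd3 (4.13, 331 nt).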

How the data were processed

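Per the labels' protocols, mRNA was sonicated, pulled down with an m6A antibody and made into stranded libraries. FastQC 0.11.5, TopHat2 2.1.1 and the mm10 build are listed, per the submitters' processing notes. The deposited table names give exomePeak as the peak caller. Not given in the sources used here are its settings and its annotation. The deposited tables give each peak's fold (a ratio of IP over input), its p-value, the log10 of p and of the FDR, and the count of exonic blocks, per the file headers, with both replicates pooled. The log10 p is quoted because the FDR is listed as minus infinity for the strongest peaks.

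Overlaps were computed over exonic blocks on the same strand with pandas 2.3.3, numpy 2.4.6 and scipy 1.17.1 under Python 3.11.15, and plotted in matplotlib 3.10.9. They were checked with bedtools 2.31.1, which gave the same 22933 overlapping pairs, and on 300 simulated peaks per list, with 0 wrong overlaps. Control rows that overlap each other were merged into a region, and both ways of counting are given. Exonic stretches were measured within the Dox peak's own blocks. Ensembl identifiers were named by location, from the protein-coding RefSeq gene (GRCm38.p6) that holds at least 50% of their peak midpoints, on the same strand where known. This named 10620 of 13110 identifiers and 1841 of the 2258 members. Overlapping or clustered genes can be misnamed. Positions used RefSeq genes of at least 3000 nt. Percentages have exact (Clopper-Pearson) 95% binomial intervals. Coordinates are 1-based.

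Genes were named by fixed rules, leaving out predicted names with Gm or Rik and, with them, identifiers without a symbol such as the 27 protocadherin rows: the 6 members with most control rows, lowest log10 FDR (ties by fold), longest bridge and, at a log10 FDR of -5 or less, highest fold, the 6 genes with most members, up to 4 members per gene list by number of control rows, and 3 members just inside and outside the rule. Other genes were named after their values were seen, and a gene that these rules name is not reported here. The members, lists and rules were chosen with earlier results of these data known. Alternatives were a larger overlap, merged control rows, the same identifier, stricter lists, a log10 FDR limit, a fold limit and whole spans.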

Additional observations from a re-analysis of the deposited data

How the results depend on the processing

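The median bridge was 119 nt under every alternative tried, and the log2 fold difference stayed negative. Overlapping control rows were merged before stretches were measured in every setting, so merging could not change the median bridge. An overlap of 50 nt gave joining in 11.0% of Dox peaks that touch a control peak, against 11.5% with 1 nt. Overlap of at least 50% of the control peak gave 10.7%, 826 control peaks that join Dox peaks against 1272, a median width of 743 nt against 660 and a log2 fold difference of -0.31 against -0.38. Merging control rows gave 8.11%, 526 and 833 nt, and the same gene identifier 9.0%, 710 and 779 nt. Stricter filters left fewer peaks to join. The authors' stricter lists held 1358 joining Dox peaks against 2258, 2388 joined control peaks against 4061 and 689 control peaks that join, with 809 nt and -0.52. At a log10 FDR of -5 or less these were 1428, 2507, 709, 808 nt and -0.49. At a fold of at least 4 they were 726, 1244, 431, 840 nt and -0.69, with 9.32% joining and 10.1% near the 3′ end by midpoint, against 14.5%. Placing all members by their end bases, added after the data were seen, gave 26.6% near the 3′ end, and 14.6% near the 5′ end against 3.19% by midpoint. Of the values recomputed with whole genomic spans, no share or median moved beyond its interval. The counts, which have no interval, were 2316 joining Dox peaks, 4157 joined control peaks and 1347 control peaks that join. No paired analysis was possible because both replicates are pooled in each table, and for that reason no replicate could be left out. Depth per peak is unknown.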

Other observations

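Among Dox peaks that touch a control peak, the share that bridges separate control regions ranged over chromosomes from 6.11% on chromosome 3 (4.58% to 7.95%, 51 of 835 peaks) to 10.5% on chromosome 19 (8.25% to 13.2%, 66 of 626 peaks) and, with the same share, chromosome 16 (61 of 583 peaks). Of the control peaks joined by a bridging Dox peak, 110 themselves lie over 2 or more separate Dox regions.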
